A study of Mus musculus with 19 samples.

Results

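The 7 genes described here are S100a1, S100a4, S100a6, S100a10, S100a11 and S100a13, which encode small calcium-binding proteins of the S100 family, and Anxa2, which encodes the calcium-dependent membrane-binding protein annexin A2. They are 7 of the 54119 genes in the data. The family was chosen by the measured TPM of S100a6, which was much higher in epiblast-like cells of the LF2 line than in those of the E14 line, so that difference is given below as a description with no test. The study measured RNA in mouse embryonic stem cells (mESC), a naive pluripotent state, and in epiblast-like cells (EpiLC), a later state of pluripotency made from them in culture. It compared these in wild type and in cells without Tet3, a gene whose enzyme oxidises 5-methylcytosine. The XX group is the wild type LF2 line, with 3 mESC and 3 EpiLC libraries. The Tet3-/- group is LF2 with Tet3 knocked out, with 4 mESC libraries (mutants #1 to #4) and 3 EpiLC libraries (#1, #3 and #4). The XY group is the wild type E14 line, with 3 libraries of each state, so sex and line cannot be told apart. The mESC of every group were in N2B27 medium to which LIF, a GSK3 inhibitor and a MEK1/2 inhibitor were added (2i), and the EpiLC of every group had 5 days of FGF5 and Activin A with no LIF. The labels do not say whether the replicates were separate cultures or the mutants separate clones, so p-values measure only the spread between these libraries.

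S100 proteins are mostly dimers that bind calcium through EF-hand motifs and then dock onto target proteins. S100a10 is the exception that no longer binds calcium. It joins annexin A2 in a heterotetramer that holds membrane to the actin cytoskeleton, carries the giant scaffold protein Ahnak, and gathers plasminogen and its activators at the cell surface. S100a6 binds annexins and the calcyclin-binding protein Cacybp, S100a4 binds non-muscle myosin heavy chain (Myh9), S100a11 binds annexin A1, S100a13 takes part in the export of Fgf1, and S100a1 is best known from heart muscle.

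The S100 genes lie in 3 stretches of chromosome 3 (GRCm38). S100a1 (90511034 to 90514392, minus strand) and S100a13 (90514435 to 90524581, plus strand) point away from each other, with starts 43 bases apart. S100a4 (90603771 to 90606045, plus strand) starts 9.11 kb before S100a6 (90612882 to 90624181, plus strand). S100a11 (93520488 to 93526287) and S100a10 (93555080 to 93564643), both on the plus strand, start 34.6 kb from each other, S100a11 2.91 Mb from S100a6. Anxa2 is on chromosome 9 (69453620 to 69491795, plus strand). Promoter windows of 300 bases, from 250 before to 50 after the start, are from RefSeq (GRCm38.p6), which held 6 of the 7 genes, not S100a10. The 4 shown are those of the gene that led the choice, its neighbour, the shared start of S100a13 and S100a1, and Anxa2. CG dinucleotides, where 5-methylcytosine mostly lies, are in capitals, since Tet3 acts on that base.
S100a6 (chr3:90612644-90612943, plus strand): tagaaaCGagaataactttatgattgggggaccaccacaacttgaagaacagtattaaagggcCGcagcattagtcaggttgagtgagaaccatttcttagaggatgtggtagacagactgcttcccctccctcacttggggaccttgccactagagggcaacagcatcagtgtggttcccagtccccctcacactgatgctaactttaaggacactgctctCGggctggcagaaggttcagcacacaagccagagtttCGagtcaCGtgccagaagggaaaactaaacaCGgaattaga
S100a4 (chr3:90603520-90603819, plus strand): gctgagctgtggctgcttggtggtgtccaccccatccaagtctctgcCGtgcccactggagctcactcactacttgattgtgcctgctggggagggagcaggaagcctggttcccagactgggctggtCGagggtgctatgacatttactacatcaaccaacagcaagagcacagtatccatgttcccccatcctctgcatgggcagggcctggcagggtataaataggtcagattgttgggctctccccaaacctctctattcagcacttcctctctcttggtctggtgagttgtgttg
S100a13 (chr3:90514185-90514484, plus strand): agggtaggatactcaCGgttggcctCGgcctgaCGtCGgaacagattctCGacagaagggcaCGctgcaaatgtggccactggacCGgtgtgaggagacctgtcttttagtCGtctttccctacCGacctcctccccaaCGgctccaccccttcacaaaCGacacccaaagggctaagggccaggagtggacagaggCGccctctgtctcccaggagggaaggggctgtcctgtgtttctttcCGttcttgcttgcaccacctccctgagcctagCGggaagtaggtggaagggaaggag
Anxa2 (chr9:69453433-69453732, plus strand): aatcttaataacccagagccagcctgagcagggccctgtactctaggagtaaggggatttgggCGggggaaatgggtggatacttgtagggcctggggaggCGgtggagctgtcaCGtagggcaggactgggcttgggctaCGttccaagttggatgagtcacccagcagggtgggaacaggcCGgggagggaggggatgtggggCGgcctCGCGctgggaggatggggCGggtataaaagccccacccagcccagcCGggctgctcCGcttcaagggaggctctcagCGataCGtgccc

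The S100a4 window held 2 CG and that of S100a6 held 6, against a median of 7 over all 32851 windows. At least 2 CG were found in 85.9% of windows and at least 6 in 56.4%. S100a13 had 14 CG (at least as many in 36.3% of windows), and its window contains the start of S100a1. Anxa2 had 13 CG (at least as many in 37.9% of windows), and S100a11, not shown, had 15 (34.6%). Of the motifs searched on both strands, TGANTCA (an AP-1 type sequence) was in the windows of Anxa2 and S100a11 and in 7.81% of all windows. TATAAA was in those of S100a4 and Anxa2 and in 13.6% of all, and CATTCC (a TEAD type sequence) was in none of the 6 and in 14.7% of all. These are matches of letters, and no methylation was measured in these files.

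Values are TPM, transcripts per 1000000 corrected for transcript length, so levels of different genes can be set side by side. TPM keeps no depth, and depth is unknown. TPM also sums to a constant, and over the 14972 tested genes the median log2 fold change was 0.54 in the XY transition from mESC to EpiLC and -0.59 for XX against XY in EpiLC. Scaled TPM, divided by median-of-ratios size factors, brought every such median within 0.02 of 0 and is given beside TPM where it matters. A gene was called when the adjusted p of limma, fitted on log2(TPM + 1) of all 19 libraries, was under 0.05. Tet3 itself was at 1.21 to 1.90 TPM in XX EpiLC and 0.693 to 1.42 TPM in Tet3-/- EpiLC, which overlap. The labels do not give the part deleted, so this level checks nothing. Mean Pearson correlation with the other libraries of the group was 0.948 for XX mESC 2 and 0.946 for Tet3-/- EpiLC #3, and at least 0.965 for every other library. In the mutant #3 EpiLC library the mesoderm marker T was at 94.3 TPM, against 0.843 and 1.03 TPM in the other mutants. The 5 mesoderm markers summed to 108 TPM there and to at most 1.67 TPM in XX EpiLC. Sums of 8 fibroblast or feeder markers were from 5.87 to 22.6 TPM over all libraries, nearly all of it Fbln1 and Thy1, with Col1a1 below 1 TPM throughout. Bulk RNA cannot tell fewer cells with a transcript from less of it per cell.

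S100a6, which encodes calcyclin, was the member with the widest range of log2(TPM + 1). It had 277, 284 and 315 TPM in the 3 XX EpiLC libraries and 5.93, 15.95 and 7.40 TPM in XX mESC. In XY it had 9.31, 8.63 and 8.07 TPM in EpiLC and 3.03, 1.67 and 3.71 TPM in mESC. XY EpiLC libraries thus lay within the range of XX mESC on TPM, and far below every LF2 EpiLC library. On scaled TPM they lay below XX mESC, at 4.74 to 6.80 against 8.69 to 15.2. The Tet3-/- libraries had 94.7 (#1), 294 (#3) and 107 TPM (#4) in EpiLC and from 3.93 to 8.75 TPM in mESC. As log2 fold changes the step from mESC to EpiLC was 4.88 (SE 0.39) in XX, 4.42 (SE 0.36) in Tet3-/- and 1.38 (SE 0.39) in XY, and on scaled TPM 4.70, 4.60 and 0.81. These S100a6 values come from the groups that led to its choice and are given without a test.

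**Figure D1:**
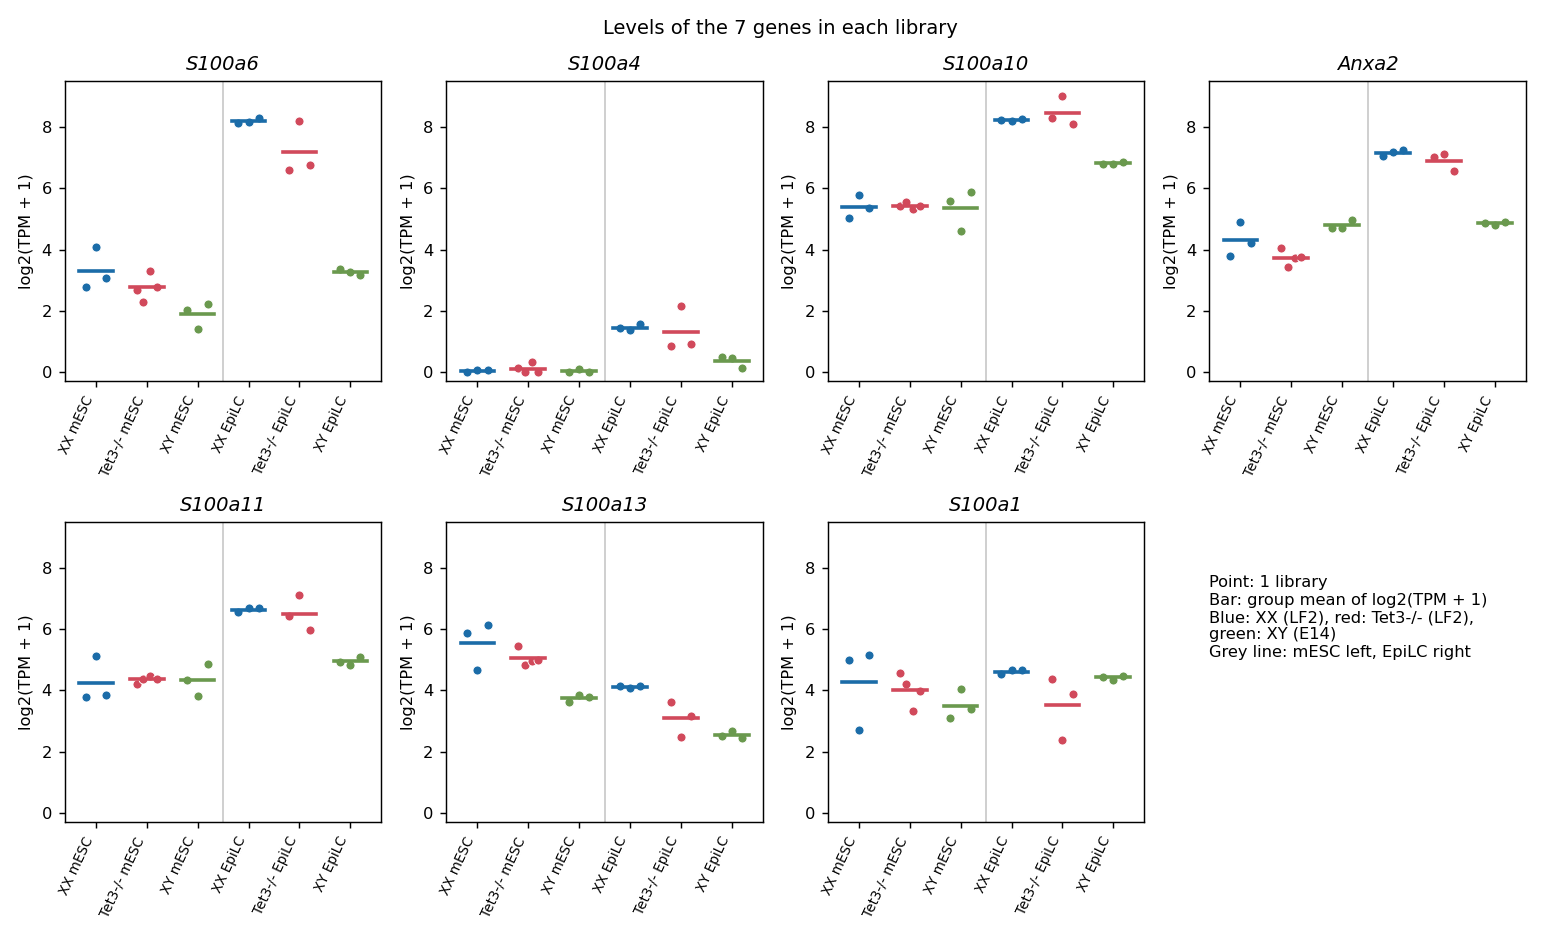
Levels of the 7 genes as log2(TPM + 1) on the vertical axis, by group on the horizontal axis, with 1 point per library and a bar at the group mean. S100a6, S100a10, S100a11 and Anxa2 sit higher in EpiLC of both LF2 genotypes (blue and red) than in their mESC, S100a4 stays under 4 TPM, and S100a13 sits lower in EpiLC in every genotype.

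Most S100a6 transcript came from 1 isoform. The isoform that starts at 90612882, in the window printed above, made up 85.6% of S100a6 TPM in XX EpiLC and 70.1% in Tet3-/- EpiLC. The next isoform starts at 90613305, downstream of that window, and made up 13.2% and 28.5%. It had 44.1, 19.1 and 52.3 TPM in XX EpiLC and 16.4 (#1), 114 (#3) and 10.7 TPM (#4) in the mutants, so the higher mutant share rests on #3. In XY mESC it was listed at 0 in all 3 libraries. TPM of isoforms that overlap depends on how reads were divided between them, which these files do not show.

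S100a4, the neighbour of S100a6 and a binder of myosin, was close to absent in mESC, at 0.25 TPM or less in each of the 10 libraries. It had 1.69, 1.57 and 1.95 TPM in XX EpiLC, 0.82 (#1), 3.48 (#3) and 0.90 TPM (#4) in Tet3-/- EpiLC, and 0.42, 0.39 and 0.10 TPM in XY EpiLC. Its log2 fold change from mESC to EpiLC was 1.40 in XX (SE 0.24) and 1.21 in Tet3-/- (SE 0.22), and 0.33 in XY (limma adjusted p 0.251). With a pseudocount of 0.1 in place of 1 these were 3.81, 3.21 and 1.60, and the last was then called (limma adjusted p 0.0276), as it also was in a fit of the XY groups alone (limma adjusted p 0.0433). The gene entered the test only through LF2 EpiLC libraries, since no other library reached 1 TPM, so a higher level there was built into the filter and the LF2 values are given without a test. Gm42674 overlaps the span of S100a4 on the same strand and was at 0.61 TPM or less in every library. How reads were divided between these genes is not shown by these files.

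S100a10 and Anxa2, the partners of the heterotetramer, rose together in LF2. S100a10 had 31.9, 54.2 and 40.3 TPM in XX mESC and 299.6, 293 and 306 TPM in XX EpiLC. Anxa2 had 12.9, 28.7 and 17.4 TPM in XX mESC and 131, 143 and 151 TPM in XX EpiLC. No EpiLC library of XX came near an mESC library for either gene. The log2 fold changes were 2.83 (SE 0.29, limma adjusted p 4.14e-07) for S100a10 and 2.85 (SE 0.25, limma adjusted p 7.01e-08) for Anxa2. The mutants showed the same step: S100a10 went from between 39.3 and 45.5 TPM to 312 (#1), 511 (#3) and 275 TPM (#4), a log2 fold change of 3.04 (SE 0.27, limma adjusted p 5.4e-08). Anxa2 went from between 9.66 and 15.5 TPM to 128 (#1), 138 (#3) and 93.5 TPM (#4), a log2 fold change of 3.17 (SE 0.24, limma adjusted p 5.53e-09).

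In XY the partners parted. S100a10 had 46.7, 23.4 and 58.0 TPM in mESC and 109, 110.3 and 115 TPM in EpiLC, with no overlap, and rose by a log2 fold change of 1.45 (SE 0.29, limma adjusted p 0.000434). On scaled TPM this was 0.79 (limma adjusted p 0.000224). Anxa2 had 25.0, 25.0 and 30.6 TPM in mESC and 27.8, 26.9 and 29.1 TPM in EpiLC, with a log2 fold change of 0.06 (SE 0.25, limma adjusted p 0.862). On scaled TPM Anxa2 fell in XY, from between 22.3 and 34.1 to between 16.1 and 20.3, and that log2 fold change was -0.59 (limma adjusted p 0.0209). The direction for Anxa2 in XY thus depends on the scaling, while that for S100a10 does not.

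The ratio of S100a10 to Anxa2 TPM within a library needs no scaling. It was 1.88 to 2.48 in XX mESC and 2.03 to 2.29 in XX EpiLC, which overlap (exact 2-sided permutation p 0.8). In XY it was 0.936 to 1.90 in mESC and 3.91 to 4.11 in EpiLC, higher in 3 of 3 EpiLC libraries (exact permutation p 0.1, the smallest that 3 against 3 allows). The mutants had ratios of 2.69 to 4.71 in mESC and 2.43 to 3.70 in EpiLC (exact permutation p 0.514). In mESC all 4 mutants lay above all 3 XX libraries, a difference of 0.63 in log2 ratio with an exact permutation p of 0.0571, the smallest possible there. In EpiLC all 3 mutants again lay above XX, by 0.49 (exact permutation p 0.1). Adjusted over these 5 tests by Benjamini-Hochberg, every p was at least 0.167. The smallest possible p was 0.0571 or 0.1 in each test, so none could fall under 0.05. These tests thus decide nothing about the ratio.

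**Figure D2:**
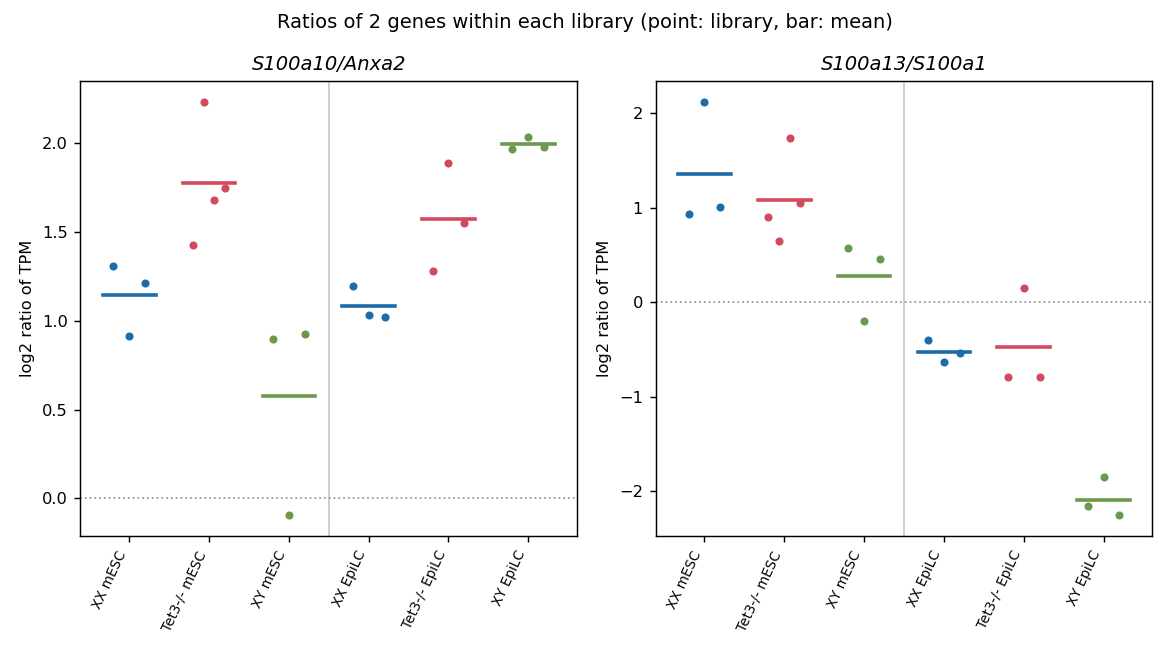
The log2 ratio of S100a10 to Anxa2 TPM (left) and of S100a13 to S100a1 TPM (right), by group, with 1 point per library and a bar at the mean. As plain ratios of S100a10 to Anxa2 the XY EpiLC libraries sit at 3.91 to 4.11, with 1 Tet3-/- mESC library above them at 4.71, and the S100a13 to S100a1 ratio is lower in EpiLC than in mESC in each genotype.

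S100a11, whose protein pairs with annexin A1, rose in both LF2 genotypes. It had 12.6, 33.8 and 13.4 TPM in XX mESC and 92.7, 101 and 101 TPM in XX EpiLC, a rise by a log2 fold change of 2.39 (SE 0.34, limma adjusted p 1.9e-05). In Tet3-/- it was at 19.5 ± 1.56 TPM (SD, n = 4) in mESC and at 85.2 (#1), 136 (#3) and 62.0 TPM (#4) in EpiLC, a rise of 2.15 (SE 0.31, limma adjusted p 2.3e-05). In XY it had 19.1, 13.1 and 27.7 TPM in mESC and 29.4, 27.0 and 33.2 TPM in EpiLC. Those XY groups overlap, and the log2 fold change was 0.62 (limma adjusted p 0.134) on TPM and -0.03 (limma adjusted p 0.902) on scaled TPM.

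S100a13 ran the other way and fell in all 3 genotypes, on TPM and on scaled TPM. It had 58.0, 24.1 and 69.1 TPM in XX mESC and 16.6, 15.7 and 16.5 TPM in XX EpiLC. In XY it had 11.3, 13.4 and 12.8 TPM in mESC and 4.66, 5.32 and 4.46 TPM in EpiLC, and the mutants went from between 27.4 and 42.2 TPM to 11.4 (#1), 4.61 (#3) and 7.85 TPM (#4). None of these groups of mESC and EpiLC overlapped within a genotype. S100a13 changed by a log2 fold change of -1.44 in XX (SE 0.32, limma adjusted p 0.00181), -1.22 in XY (SE 0.32, limma adjusted p 0.00432) and -1.96 in Tet3-/- (SE 0.30, limma adjusted p 3.88e-05).

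S100a1, which starts 43 bases from S100a13 on the other strand, did not pass the test in any transition in the fit of all groups. It had 30.5, 5.54 and 34.3 TPM in XX mESC and 21.9, 24.2 and 24.0 TPM in XX EpiLC, and its low XX mESC library is the one that stood apart. Its transition log2 fold changes of 0.33 for XX, 0.92 for XY and -0.49 for Tet3-/- were not called (limma adjusted p 0.702, 0.159 and 0.505), and without XX mESC 2 the first was -0.45. In a fit of the XY groups alone the XY value was called (limma adjusted p 0.0273). Within a library the ratio of S100a13 to S100a1, a pair chosen after the values were seen, was lower in every EpiLC library than in any mESC library of its genotype. It lay between 1.90 and 4.35 in XX mESC and between 0.647 and 0.759 in XX EpiLC. In XY it lay between 0.874 and 1.49 in mESC and between 0.210 and 0.277 in EpiLC. In Tet3-/- it lay between 1.57 and 3.33 in mESC and between 0.578 and 1.11 in EpiLC.

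Counted together, 6 of 7 members were called in the XX transition, 5 higher and 1 lower in EpiLC, against 31.3% of all tested genes called (19.2% higher and 12.2% lower). The median log2 fold change was 2.39 for the 7 and 0.14 for all genes. In Tet3-/- 5 members were called higher and 1 lower, against 35.1% called of all genes (13.6% higher, 21.5% lower), with medians of 2.15 and -0.13. In XY 2 were called higher (S100a6 and S100a10) and 1 lower (S100a13), against 50.5% of all genes (41.1% higher, 9.36% lower), with medians of 0.62 and 0.54. The XY count is close to the share of all genes, and nothing is read from it. These counts include S100a6, which was chosen for its EpiLC level, and S100a4, which passed the filter through LF2 EpiLC, and nothing is read from those 2. Of the other 5 members, 3 were called higher and 1 lower in XX and in Tet3-/-, and 1 higher and 1 lower in XY, with medians of 2.39, 2.15 and 0.62. On scaled TPM the counts were the same in XX and Tet3-/- (50.4% and 52.4% of all genes called), and in XY 2 were called higher and 2 lower (51.4% of all genes).

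**Figure D3:**
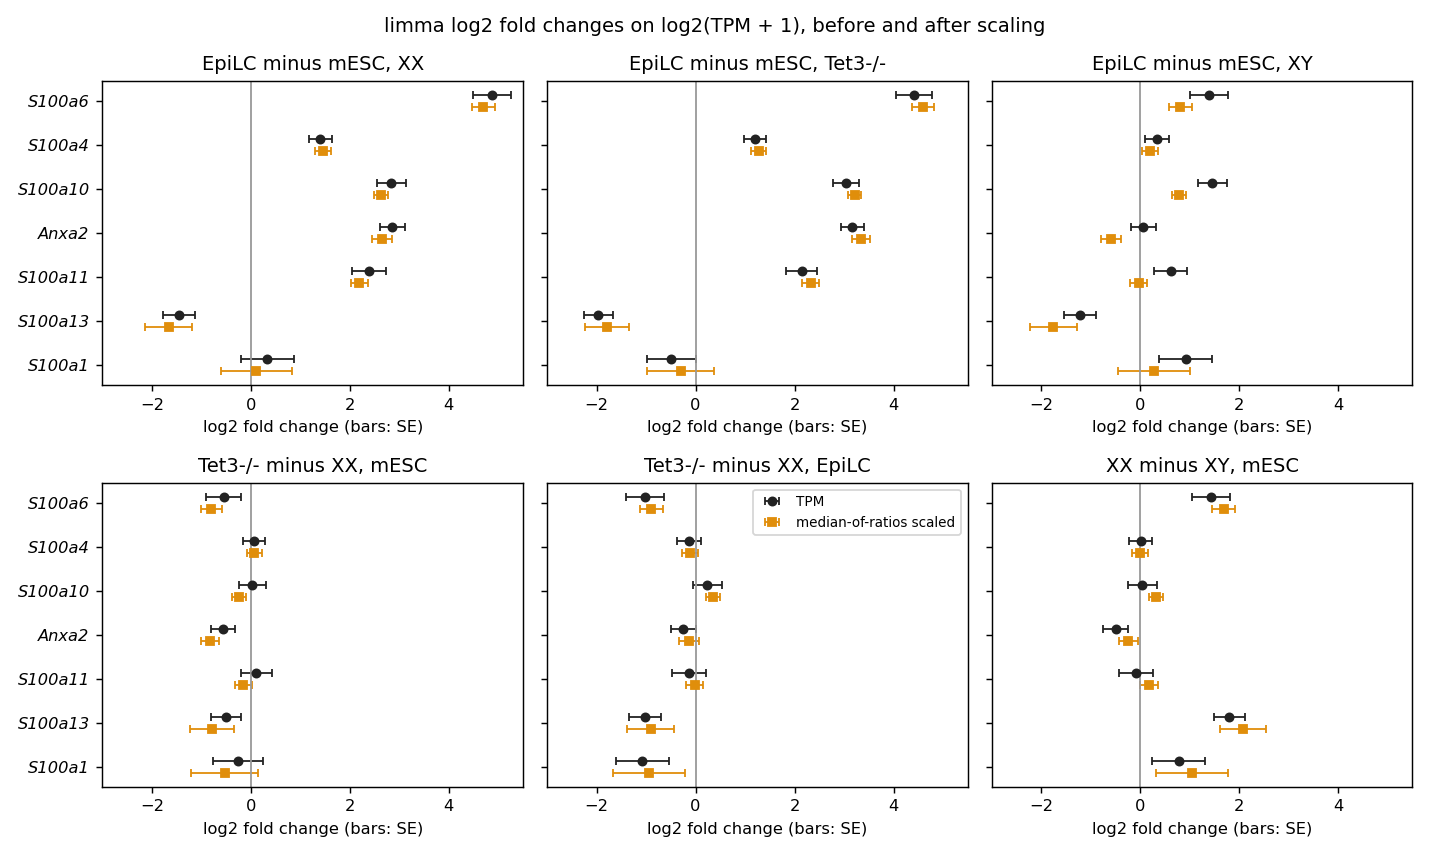
limma log2 fold changes of the 7 genes on the horizontal axis with bars for the SE, from TPM (black circles) and from scaled TPM (orange squares), in the 3 transitions (top) and 3 comparisons between genotypes (bottom). Anxa2 in XY moves from 0.06 to -0.59 with the scaling, and S100a6 for Tet3-/- minus XX in EpiLC is -1.01 and -0.90.

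Loss of Tet3 was compared with wild type within LF2 in each state. In mESC limma called 0 of the 7 members, where it called 0.601% of all genes, and 1 member (Anxa2) had an unadjusted p under 0.05. Anxa2 was at 12.9 to 28.7 TPM in XX mESC and 9.66 to 15.5 TPM in the mutants, which overlap (log2 fold change -0.56, SE 0.24, limma adjusted p 0.452). On scaled TPM it was 20.4 to 27.4 in XX and 10.3 to 17.3 in the mutants, with no overlap, and was called lower (-0.82, SE 0.19, limma adjusted p 0.0222), against 3.18% of all genes called on that scale. S100a10 had log2 fold changes of 0.03 on TPM and -0.24 on scaled TPM, neither called. S100a13 was -0.51 and -0.78, also not called.

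In EpiLC S100a6 is described without a test, since its level in XX EpiLC led to the choice. Of the other 6 members limma called 0 on TPM, with 1.08% of all genes called, and 0 on scaled TPM, with 5.46% called. An unadjusted p under 0.05 was found for 1 of them on TPM (S100a13) and 1 on scaled TPM (S100a10). S100a6 was lower in mutants #1 and #4 than in all XX libraries, but mutant #3, at 294 TPM, lay within the XX range. Its log2 fold change was -1.01 (SE 0.39). On scaled TPM XX EpiLC libraries were at 323, 295 and 312 and the mutants at 126 (#1), 221 (#3) and 164 (#4). These did not overlap, and the log2 fold change was -0.90 (SE 0.23). Without mutant #3, whose mesoderm marker sum stood apart, it was -1.53 on TPM and -1.10 on scaled TPM. Pluripotent markers also differed: of 6, 2 were called lower in Tet3-/- EpiLC on TPM, Sox2 (-1.11, limma adjusted p 0.029) and Esrrb (-1.70, limma adjusted p 0.017), and 4 on scaled TPM. Their sum was 289 to 316 TPM in XX EpiLC and 167 to 415 TPM in the mutants. The part of these marker differences in the S100a6 level was not tested.

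Among the other members in Tet3-/- EpiLC, S100a10 had a log2 fold change of 0.23, Anxa2 -0.25, S100a11 -0.13 and S100a4 -0.13, each within 1 SE of 0 (0.29, 0.25, 0.34 and 0.24), while S100a13 was at -1.02 (limma adjusted p 0.18) and S100a1 at -1.07 (limma adjusted p 0.558). For S100a13 all 3 mutants (4.61 to 11.4 TPM) lay below all 3 XX libraries (15.7 to 16.6 TPM), and the lowest is #3. Without #3 S100a4 was at -0.56, and the libraries in which it reached 1 TPM were then the 3 of XX EpiLC. For the difference between the Tet3-/- and XX transitions limma called 0 of the 6 members besides S100a6, where 0.174% of all genes were called, and none had an unadjusted p under 0.05 on TPM. On scaled TPM 2 did, S100a10 (0.59, limma adjusted p 0.236) and Anxa2 (0.69, limma adjusted p 0.336), neither called, with 0.661% of all genes called.

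In mESC the lines were compared for all members, since those libraries did not enter the choice. XX was higher than XY for S100a13, with a log2 fold change of 1.80 (SE 0.32, limma adjusted p 0.000737), where 14.2% of all genes were called (6.43% higher in XX). Its XX libraries (24.1 to 69.1 TPM) all lay above the XY libraries (11.3 to 13.4 TPM). S100a6 was also called higher in XX (1.43, SE 0.39, limma adjusted p 0.017), at 5.93 to 15.95 TPM against 1.67 to 3.71 TPM, with no overlap. On scaled TPM these were 2.08 and 1.69 (limma adjusted p 0.00321 and 4.46e-05), the only calls among the 7, where 31.3% of all genes were called. The S100a6 call on TPM was lost without XX mESC 2 (1.04, limma adjusted p 0.0582), without XY mESC 2 (1.19, limma adjusted p 0.0588) and in a fit of those groups alone (limma adjusted p 0.104). S100a10, S100a11 and S100a4 had log2 fold changes of 0.04, -0.08 and 0.01. S100a1 was at 0.78 and Anxa2 at -0.50, neither called, and without XX mESC 2 both were (1.56, limma adjusted p 0.018, and -0.80, limma adjusted p 0.0178). Cell type markers differed between these mESC groups too. Of 5 EpiLC markers 1 was called higher in XX (Otx2, 2.90, limma adjusted p 4.1e-07) and 1 lower. Of 9 primitive endoderm markers 3 were tested and 2 called higher in XX (Gata6 at 1.35 and Dab2 at 1.47), with sums of 1.65 to 9.12 TPM in XX and 0.668 to 1.1002 TPM in XY. Of 5 mesoderm markers only T was tested and was called lower in XX (-2.86, limma adjusted p 0.041), with sums of 0.475 to 0.639 TPM in XX and 5.07 to 8.15 TPM in XY. Their part in the S100 values was not tested.

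In EpiLC the difference between the lines is the one that led to the choice and is described without a test. S100a6 had a log2 fold change of 4.92 for XX against XY, followed by Anxa2 at 2.30, S100a11 at 1.69, S100a13 at 1.57, S100a10 at 1.42, S100a4 at 1.08 and S100a1 at 0.19. On scaled TPM S100a6 was at 5.58, Anxa2 at 3.01 and S100a10 at 2.15, and with a pseudocount of 0.1 S100a4 was at 2.32. As a description from which nothing is read, 6 of the 7 were past the limma threshold, with 47.2% of all genes, 5.23% higher in XX. The smallest of these differences, that of S100a1, was 21.9 to 24.2 TPM in XX EpiLC against 19.2 to 21.3 TPM in XY EpiLC. On scaled TPM S100a1 was at 23.7 to 25.5 against 11.5 to 15.2, a log2 fold change of 0.88. As differences between the transitions, XX minus XY, S100a6 was at 3.49, Anxa2 2.80, S100a11 1.77, S100a10 1.38, S100a4 1.07, S100a13 -0.23 and S100a1 -0.59. With a pseudocount of 0.1 S100a4 was at 2.21. This difference holds the values that led to the choice, so that 5 members were past the threshold, with 16% of all genes (3.61% higher), is again only a description. The state of the cells also differed: the sum of 5 EpiLC markers was 45.4 to 55.8 TPM in XX EpiLC and 276 to 349 TPM in XY EpiLC, with Fgf5 at 2.21 to 2.78 against 50.8 to 59.98 TPM and Otx2 at 10.4 to 11.5 against 52.2 to 69.2 TPM. In Tet3-/- EpiLC that sum was 48.5 to 158 TPM. The 5 mesoderm markers summed to 1.41 to 1.67 TPM in XX EpiLC and 17.9 to 28.0 TPM in XY EpiLC. The 6 pluripotent markers summed to 289 to 316 TPM in XX EpiLC and 477 to 491 TPM in XY EpiLC. On TPM 4 of those 6 were past the limma threshold as higher in XX and 2 as lower. On scaled TPM 4 were past it as higher in XX and 0 as lower, so the lower values depend on the scaling. The marker sums are given on TPM only, so the higher pluripotent sum in XY EpiLC is not read as more of these transcripts. The part of these marker differences in the S100 levels was not tested.

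The share of each gene in the summed TPM of the 7 does not depend on scaling. The sum itself was 165 ± 15.3 TPM (SD, n = 3) in XX mESC and 873 ± 39.1 TPM (SD, n = 3) in XX EpiLC, and 116 ± 25.2 and 203 ± 6.82 TPM (SD, n = 3 each) in XY. In XX mESC S100a13 was the largest part on average, at 30.4%, and S100a6 was 5.93%, or 3.99% without XX mESC 2. In XX EpiLC S100a10 took 34.3% and S100a6 33.5%, while S100a13 was down to 1.87%. XY EpiLC was mostly S100a10, at 54.7%, with S100a6 at 4.27%. In Tet3-/- EpiLC S100a6 took 14.5% (#1), 26.9% (#3) and 19.1% (#4), each below the 3 XX EpiLC libraries at 32.9% to 34.4%, and S100a10 took 47.9% on average. The mutant #3 library, which overlapped XX in S100a6 TPM, thus did not overlap it in this share. Its sum of the 7 was 1092 TPM, with S100a10 at 511 TPM, against 841 to 916 and 293 to 306 TPM in XX EpiLC. On TPM the lower share in #3 thus goes with a larger sum and not with less S100a6. On scaled TPM S100a6 in #3 was lower, at 221 against 295 to 323 in XX EpiLC. Scaled S100a10 was higher there, at 384 against 303 to 348.

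**Figure D4:**
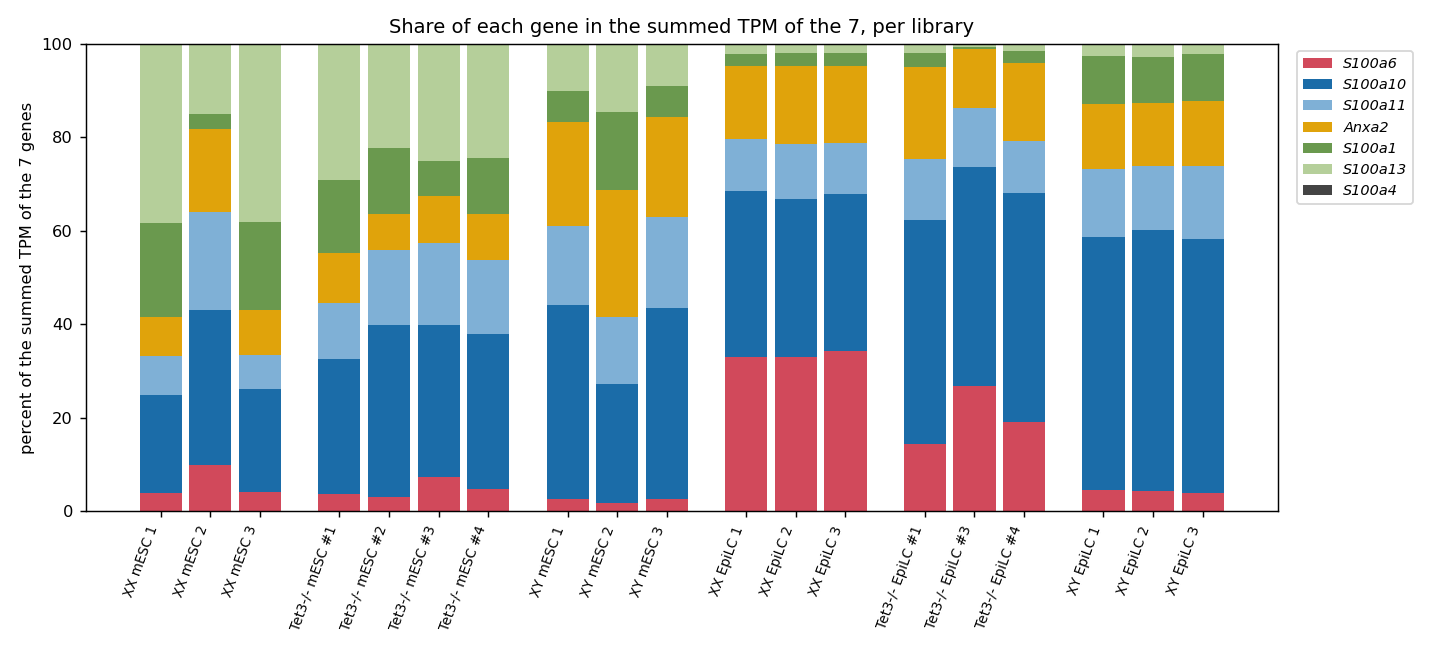
Stacked bars of the percent that each gene takes of the summed TPM of the 7 (vertical axis, 0 to 100), with 1 bar per library. S100a6 (red) takes 32.9% to 34.4% in XX EpiLC, 14.5% to 26.9% in Tet3-/- EpiLC and under 5% in XY EpiLC, S100a13 (light green) shrinks in all EpiLC, and S100a4 is too small to see.

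Across the 6 groups the order of S100a6 means was XX EpiLC (292 TPM), Tet3-/- EpiLC (165 TPM), XX mESC (9.76 TPM), XY EpiLC (8.67 TPM), Tet3-/- mESC (6.00 TPM) and XY mESC (2.80 TPM). Neighbours in that order overlapped except Tet3-/- EpiLC with XX mESC and Tet3-/- mESC with XY mESC. S100a10 came in the order Tet3-/- EpiLC (366 TPM), XX EpiLC (299.5 TPM), XY EpiLC (111 TPM) and then the 3 mESC groups, all between 42.1 and 42.7 TPM and overlapping. S100a11 and Anxa2 had XX EpiLC first, overlapping with Tet3-/- EpiLC, and a gap down to XY EpiLC, which overlapped with XY mESC for both. Over the 19 libraries Pearson's r of log2(TPM + 1) was 0.92 to 0.95 between S100a6 and each of S100a10, S100a11 and Anxa2, 0.97 between S100a10 and S100a11, and -0.27 between S100a6 and S100a13. These r describe 19 libraries that fall in a few groups.

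Among the 5 genes whose pattern was most like that of S100a6 over the 19 libraries, by Pearson's r of log2(TPM + 1) among 10335 genes, were Plac8 (0.98), Wnt7b (0.98), Xist (0.97) and Anxa3 (0.97). Xist, the RNA that silences an X chromosome, had means of 30.02 TPM in XX EpiLC, 27.8 TPM in Tet3-/- EpiLC and 0.722 TPM in XY EpiLC. For Anxa2 the closest 5 were Cavin1 (0.98), a coat protein of caveolae, Tent5b (0.97), Vgll3 (0.96), Krt8 (0.96), a keratin of simple epithelia, and Nnat (0.95). Krt8 had means of 153 TPM in XX EpiLC, 197 TPM in Tet3-/- EpiLC and 41.6 TPM in XY EpiLC. On scaled TPM 3 of the first 5 and 1 of the second 5 were still among the closest 5.

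The rest of the S100 family was almost silent. Of 12 other S100 family names, 1 was not found in the annotation and only S100pbp, which encodes a binding protein of S100P and is not itself an S100 protein, passed the filter. S100a16 had a mean of 0.999 TPM in XY mESC and 0.811 TPM in XY EpiLC, and S100a14 at most 0.442 TPM in any group. S100a3, named after its values were seen, had 0.75, 0.85 and 0.34 TPM in XX EpiLC. It had 0.33 (#1), 1.63 (#3) and 0.28 TPM (#4) in Tet3-/- EpiLC, and at most 0.19 TPM in any library of the other groups.

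Other annexins partly went the way of Anxa2. Of 11, 8 were tested, and in the XX transition 4 were called higher and 1 lower, in Tet3-/- 4 higher and 2 lower, and in XY 1 higher and 1 lower, against 31.3%, 35.1% and 50.5% of all genes called. On scaled TPM these were 4 and 2, 4 and 2, and 0 and 5, against 50.4%, 52.4% and 51.4% of all genes called. The 4 with the highest group means were Anxa3, Anxa4, Anxa7 and Anxa5. Anxa3 had 5.10 to 7.58 TPM in XX mESC and 69.4 to 82.6 TPM in XX EpiLC, a rise of 3.37 (limma adjusted p 2.5e-08), and rose by 3.03 (limma adjusted p 2.7e-08) in Tet3-/-. In XY it had 2.21 to 4.55 TPM in mESC and 7.62 to 8.88 TPM in EpiLC, called higher on TPM (1.16, limma adjusted p 0.0019) and not on scaled TPM (0.56, limma adjusted p 0.1). Anxa5, which binds phosphatidylserine, rose in XX (1.69, limma adjusted p 0.0024) and Tet3-/- (2.35, limma adjusted p 4.3e-05) and had 0.02 in XY. Anxa4 was higher in XY mESC, with a mean of 44.8 TPM, than in XX mESC, with 12.9 TPM. In EpiLC its log2 fold change for XX against XY was -0.63 on TPM and 0.08 on scaled TPM. From mESC to EpiLC it rose in XX (0.65, limma adjusted p 0.036) and Tet3-/- (0.60, limma adjusted p 0.035). In XY that step was -0.48 (limma adjusted p 0.085), and -1.14 (limma adjusted p 2.1e-05) on scaled TPM. Anxa7 was not called in any transition on TPM, and on scaled TPM it was called lower in XY only (-1.04, limma adjusted p 0.00077).

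Anxa1, Anxa6 and Anxa8 are named after their values were seen. Anxa1, the partner of S100a11, had 1.18 to 1.83 TPM in XX mESC and 13.1 to 14.0 TPM in XX EpiLC (log2 fold change 2.60, limma adjusted p 5.5e-06), and 0.86 to 1.28 TPM in XY EpiLC. Anxa8 fell in all 3 transitions, by 1.29 in XX, 1.77 in XY and 2.45 in Tet3-/- on the log2 scale (limma adjusted p 0.0062, 0.00028 and 5e-06). Anxa6 was called lower in Tet3-/- on TPM (-0.90, limma adjusted p 0.0068) and in all 3 transitions on scaled TPM.

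**Figure D5:**
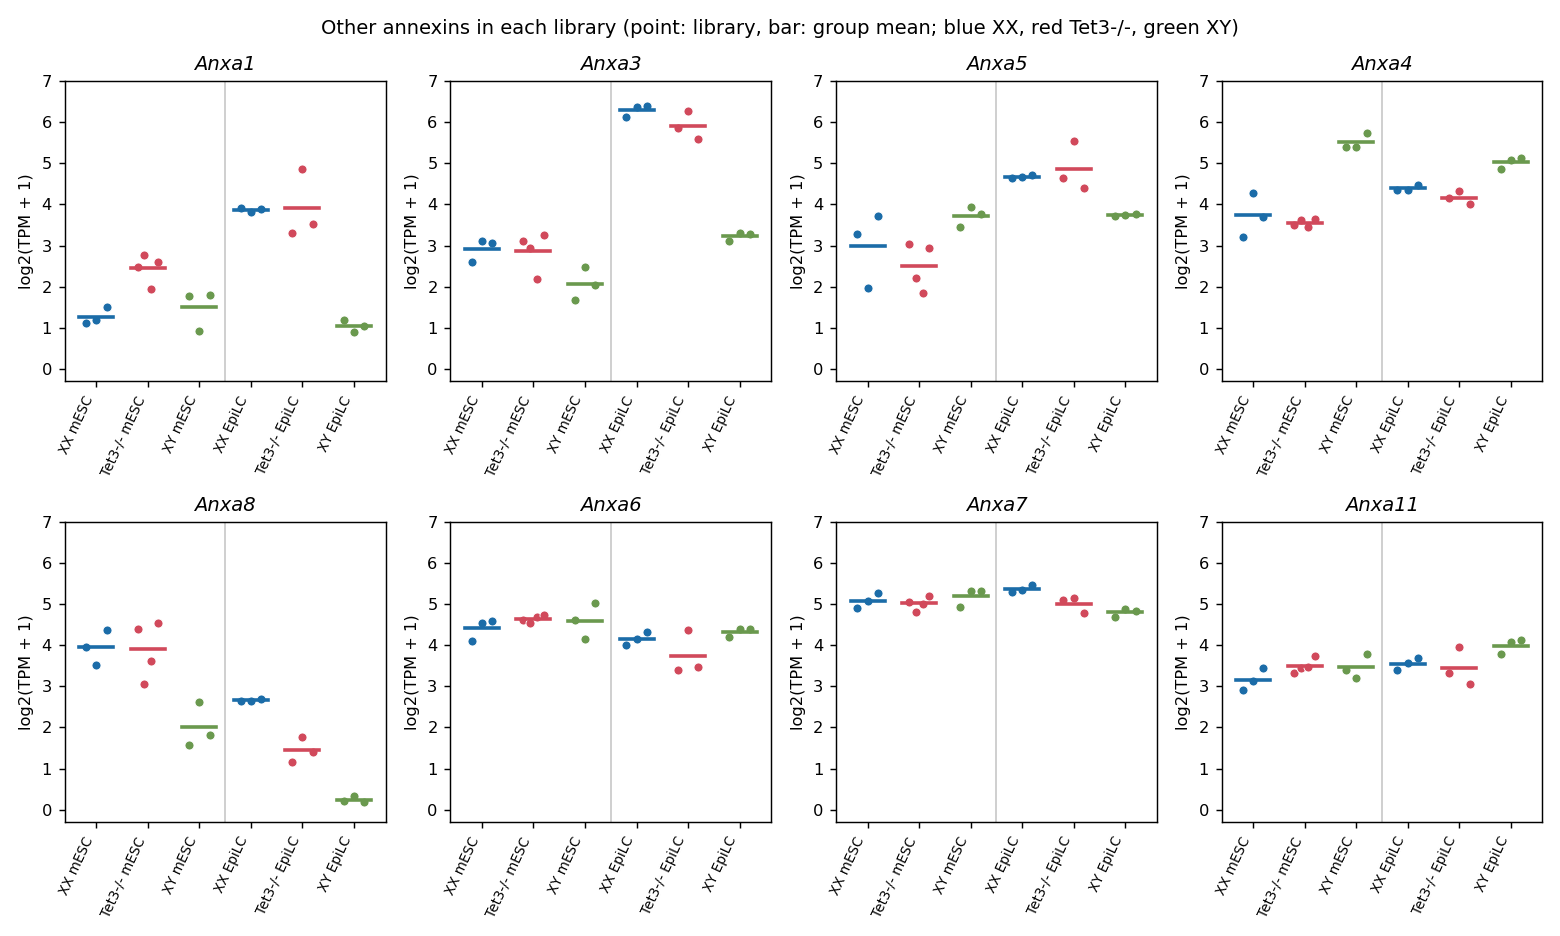
The 8 other annexins that passed the filter, as log2(TPM + 1) on the vertical axis by group, with 1 point per library and a bar at the group mean. Anxa1, Anxa3 and Anxa5 sit higher in LF2 EpiLC (blue and red) than in XY EpiLC (green), Anxa4 is highest in XY, and Anxa8 falls from mESC to EpiLC in every genotype.

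Partners and targets of these proteins were taken from a list of 20 genes, of which 13 were tested. In the XX transition 6 were called higher and 1 lower, in Tet3-/- 6 and 1, and in XY 6 and 2, against 31.3%, 35.1% and 50.5% of all genes called. On scaled TPM these were 8 and 3, 8 and 3, and 5 and 5, against 50.4%, 52.4% and 51.4%. Of the 4 most abundant, Tpm1, a tropomyosin, rose in all 3 (log2 fold changes 3.76, 4.03 and 3.89 in XX, Tet3-/- and XY), from means of 44.4, 37.3 and 22.9 TPM to 610.5, 627 and 351 TPM. Myh9, the myosin that S100a4 binds, also rose in all 3 (1.66, 1.81 and 2.04, limma adjusted p 0.00033, 5.2e-05 and 2.3e-05). Ahnak, the scaffold carried by S100a10 and annexin A2, went with Anxa2: it rose in XX (1.37, limma adjusted p 0.0075) and Tet3-/- (1.69, limma adjusted p 0.00071), while in XY it had 17.5 to 37.7 TPM in mESC and 15.3 to 22.6 TPM in EpiLC. That XY log2 fold change was -0.23 (limma adjusted p 0.61), and -0.87 (limma adjusted p 0.011) on scaled TPM. Sugt1, a co-chaperone, was not called in any transition on TPM and was called lower in all 3 on scaled TPM. Plaur, the urokinase receptor, named after its values were seen, had means of 21.8 TPM in XX EpiLC, 13.5 TPM in Tet3-/- EpiLC, 4.22 TPM in XY EpiLC and below 1 TPM in each mESC group.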

How the data were processed

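RNA was measured in 19 libraries of 6 groups, as stranded total RNA without ribosomal RNA, per the labels' protocols. The deposited table held TPM for 140948 transcripts, each column summing to 1000000. The submitters' processing notes name Salmon 1.1.0, Trimmomatic 0.35, FastQC 0.11.7 and GRCm38. TPM keeps no depth, and the spread between libraries is the measure of precision. TPM was summed per gene with GENCODE vM21, where 1096 transcripts did not match (0.0454% to 0.215% of TPM) and were left out.

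Genes at 1 TPM or more in 3 or more libraries were tested with limma 3.58.1 (R 4.3.3) on log2(TPM + 1), a pseudocount of 1 (lmFit, contrasts.fit, eBayes with a trend, 1 fit of 6 groups), with Benjamini-Hochberg adjustment within each contrast. This scale understates changes of low genes. Ratios were compared by exact permutation in SciPy 1.17.1. The fit was tested on simulated data in which 200 genes were changed. At a log2 change of 1 it recovered 39% of them for Tet3-/- against XX in mESC and 35% in EpiLC. For the difference of the Tet3-/- and XX transitions it recovered 0.5%, and 80% at a log2 change of 2. A count of 0 called in these comparisons thus does not show that members were unchanged. Mutants #1, #3 and #4 carry the same number in mESC and EpiLC titles, which pairs those libraries (their deviations correlated by 0.27, 0.30 and -0.020), and the mutant number as a replicate block changed no member's call in that transition. Alternatives covered the pseudocount, filter, scaling, transcripts, samples, variance model, replicate block, call rule and libraries left out. Named genes were the members, isoforms with at least 10% of a member's TPM, the 4 most abundant genes of a list and the 5 closest in pattern, of which 1 is not reported here. Members and lists were chosen with earlier results of these data known.

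Marker lists of cell types were pluripotent, EpiLC, primitive endoderm, trophoblast, fibroblast or feeder, mesoderm and neural. Summed over each list, pluripotent markers were at 167 to 1237 TPM over all libraries, primitive endoderm at 0.668 to 16.3, trophoblast at 5.12 to 28.3 and neural at 0.204 to 2.54. The EpiLC, fibroblast and mesoderm sums stand beside the results.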

Additional observations from a re-analysis of the deposited data

How the results depend on the processing

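Results were recomputed with other pseudocounts, filters, scalings, transcripts, samples, variance models and call rules. Of 1062 recomputed fold changes of single members, 991 were labelled the same. For tested values this meant the same direction and side of the threshold. Values described without a test were labelled by direction and size alone, so calls lost among them are not counted as changes. The cause of the other values was not tested. Median-of-ratios scaling aside, the counts below come without the share of all genes called in the same setting. They are thus a description, from which nothing about the members is read. The members called in the XX and Tet3-/- transitions stayed at 6 whichever library was left out. In the XY transition 5 were called in a fit of those groups alone and 5 with the replicate block, and 3 to 4 with a library left out. For Tet3-/- against XX in mESC 1 was called on median-of-ratios scaling and 1 on scaling over protein-coding genes, and 0 with any library left out. In EpiLC 1 was called on either scaling and on scaled TPM without mutant #3 (a setting added after the data were seen), and 0 to 2 with a library left out. These calls were S100a6, described above without a test, and, without mutant #3 on TPM, S100a4 too. For XX against XY in mESC 1 was called with no filter, 1 in a fit of those groups alone, 0 with the replicate block, and 1 to 3 with a library left out. For the difference of the XX and XY transitions 3 were called with no filter and 2 to 4 with a library left out. Of the genes closest in pattern, 3 of 5 for S100a6 and 1 of 5 for Anxa2 were shared after scaling. The S100a10 to Anxa2 log2 ratio in the XX transition was -0.17 to 0.023 with a library left out.

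Fold changes that turned direction were mostly close to 0. Median-of-ratios scaling gave, on the log2 scale, -0.032 for S100a11 and -0.59 for Anxa2 in XY, -0.24 for S100a10 and -0.15 for S100a11 for Tet3-/- against XX in mESC, and -0.00090 for S100a4 and 0.18 for S100a11 for XX against XY in mESC. It gave 0.13 for S100a11 and 0.095 for S100a13 in the differences of the Tet3-/- and XX and of the XX and XY transitions. Scaling over protein-coding genes gave -0.28 for Anxa2 in XY, -0.17 and -0.085 for S100a10 and S100a11 for Tet3-/- against XX in mESC, and 0.20 for S100a11 for XX against XY in mESC. Scaled TPM without mutant #3 gave 0.56 for S100a1 in the Tet3-/- transition, 0.059 for Anxa2 for Tet3-/- against XX in EpiLC, and 0.44, 0.14 and 0.44 for S100a1, S100a11 and S100a13 in the difference of those transitions.

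With a library left out, S100a1 ranged from -0.45 to 0.76 in the XX transition, -0.90 to 0.10 in the Tet3-/- transition and -1.04 to 0.17 for Tet3-/- against XX in mESC. In that comparison S100a4 ranged from -0.0038 to 0.10, S100a10 from -0.15 to 0.22 and S100a11 from -0.13 to 0.55. For Tet3-/- against XX in EpiLC S100a4 ranged from -0.56 to 0.095, S100a10 from -0.033 to 0.41 and S100a11 from -0.43 to 0.13. For XX against XY in mESC S100a4 ranged from -0.0087 to 0.046, S100a10 from -0.33 to 0.30 and S100a11 from -0.52 to 0.17. In the difference of the Tet3-/- and XX transitions S100a4 ranged from -0.62 to 0.029, S100a10 from -0.063 to 0.38 and S100a11 from -0.68 to 0.023, and S100a13 in that of XX and XY from -0.68 to 0.059.

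Apart from the Tet3-/- transition, whose libraries share a mutant number, same-numbered libraries of different groups share only a replicate number. Their deviations correlated by 0.069, -0.049 and 0.032 across the XX transition, 0.19, -0.043 and 0.24 across XY, 0.52, 0.44 and -0.44 between Tet3-/- and XX mESC, 0.080 and 0.10 between Tet3-/- and XX EpiLC, -0.16, -0.41 and -0.019 between XX and XY mESC and 0.26, 0.036 and 0.076 between their EpiLC. With the number as a replicate block S100a4 and S100a11 for Tet3-/- against XX in EpiLC were at 0.019 and 0.15, and S100a6 and S100a13 for XX against XY in mESC had limma adjusted p of 0.237 and 0.15. In the XY transition S100a1 and S100a4 were called with it (limma adjusted p 0.0349 and 0.0381). TPM gives no depth, so no counting limit can be set for S100a4, the member closest to 0.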
